A study of Homo sapiens with 6 samples.

Results

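The genes described here, 10 in all, restrain or report signalling through the ERK branch of the MAP kinases: DUSP1, DUSP4, DUSP5, DUSP6, DUSP10, SPRY2, SPRY4, SPRED1, PHLDA1 and IER3. They were chosen by name, 10 of the 46287 rows of a table of read counts per gene, and each of the 10 passed the filter on low counts that left 12293 genes to be tested. The counts come from bulk RNA sequencing of HaCaT cells, a keratinocyte line of human skin that became immortal without an introduced oncogene. There were 3 libraries of unedited, wild-type control cells and 3 of cells with a homozygous knockout of SDR42E1, a short-chain dehydrogenase/reductase gene, made with CRISPR/Cas9; both groups shared the same high-glucose medium with fetal bovine serum and antibiotics and were detached with EDTA before RNA was taken. The replicates are labelled biological, with no word on the number of cultures or edited clones behind them. The p-values therefore cover the spread among these 6 libraries, which may be technical.

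Growth factor receptors pass their signal through RAS, RAF and MEK to the kinase ERK, and active ERK turns on transcription of genes whose products switch the same cascade off. Dual-specificity phosphatases (DUSP) remove phosphate from both activating residues of a MAP kinase, Sprouty proteins (SPRY) act between receptor and RAF, and SPRED1 brings the RAS inhibitor neurofibromin to the membrane. In keratinocytes the cascade is driven mainly by the EGF receptor and is known for its part in proliferation, migration and wound closure. RNA of such feedback genes is widely read as a report of ERK output, although it is not a measure of ERK phosphorylation, which was not analysed here.

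Library totals ran from 11504473 to 16928201 counts, and replicates were distinct libraries, their counts differing beyond Poisson error in each pair within a group (chi-square over its degrees of freedom, 2.65 to 4.49). SDR42E1 itself stood at 46.8, 47.6 and 48.8 CPM (counts scaled to library size) in control and 23.2, 20.1 and 20.7 CPM in knockout libraries, lower in each knockout library but not absent. Its log2 fold change was -1.16 (SE 0.08), and the 20 tested genes nearest to it on chromosome 16 had a median of -0.57, with 20 of 20 below 0. Keratinocyte markers summed to 7273 to 7847 CPM in control and 7223 to 7587 CPM in knockout libraries, a sum whose parts moved apart. Of 9 markers 5 rose and 2 fell by the test given below, where 24.6% of all tested genes rose and 25.8% fell. Among the 9, ITGA6 went from 1110 to 1582 CPM and KRT5 from 2698 to 1709 CPM. Markers of other cell types were low and not equal between groups: fibroblast markers summed to 4.30 to 6.19 CPM in control and 1.12 to 2.13 in knockout libraries, endothelial markers to 3.65 to 4.28 and 1.92 to 2.66, leukocyte markers to 6.04 to 8.97 and 9.01 to 10.3, and melanocyte markers to 24.1 to 24.9 and 19.5 to 23.5. Their part in the results was not tested, while DCN, PDGFRA, TYR and CD3E had no count in any library. Mitochondrially encoded genes held 0.389% to 0.461% of counts in control and 0.344% to 0.359% in knockout libraries; the groups do not overlap, and the part of this difference in the results was not tested.

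The stretches ahead of DUSP1 and DUSP10 are shown first, because these were the 2 genes of the set that fell and they held the most matches to the motifs searched. The windows are the 250 bases before a RefSeq start on GRCh38.p14, 5′ to 3′ on the gene's strand, with capitals for matches to TGACGT (a core of the cyclic AMP response element), CCAAT (the CCAAT box) and TATAAA (the TATA box), each searched on both strands. The DUSP1 window is chr5:172771196-172771445, minus strand. For DUSP10 the part of its first window ahead of any annotated exon of DUSP10 is printed, the 163 bases of chr1:221742177-221742339, minus strand.
DUSP1: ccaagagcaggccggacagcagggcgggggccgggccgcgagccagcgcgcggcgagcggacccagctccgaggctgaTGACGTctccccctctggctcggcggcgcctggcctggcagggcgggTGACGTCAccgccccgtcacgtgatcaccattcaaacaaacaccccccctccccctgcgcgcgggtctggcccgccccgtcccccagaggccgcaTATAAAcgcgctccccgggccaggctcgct
DUSP10: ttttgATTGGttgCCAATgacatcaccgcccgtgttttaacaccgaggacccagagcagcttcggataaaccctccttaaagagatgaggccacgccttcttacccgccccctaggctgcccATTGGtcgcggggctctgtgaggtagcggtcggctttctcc

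DUSP1 held TGACGT at 172 and 125 bases before its start and, on the other strand, at 123 bases, where the match overlaps the one at 125; TATAAA lay at 30 bases. DUSP10 held CCAAT or its reverse at 245, 237, 128 and 79 bases before its start, the last within an annotated exon. Promoter windows were at hand for 7 of the 10 genes (10 windows, since some genes have several starts), and not for DUSP4, DUSP5 and IER3. TGACGT and TATAAA were each in 1 of the 10 windows, that of DUSP1. Over all 35116 RefSeq windows 7.10% held TGACGT and 10.7% TATAAA. The CCAAT box was in 2 of the 10 windows, from DUSP10 and DUSP6, against 32.0% of all windows. The letters CCGGAA are the core bound by ETS factors on which ERK acts. They were in 2 of the 10 windows, from PHLDA1 and SPRY2, against 14.5% of all windows. No window of the 7 genes held TGANTCA, an AP-1 site (6.57% of all windows), or a CArG box, the site of serum response factor (1.16%). GGGCGG, the GC box, was in 7 of the 10 windows, those of 6 genes, against 42.6% of all windows; the 10 windows had a median GC content of 64.0%, against 58.0% over all windows. The ETS and CCAAT matches outside DUSP1 and DUSP10 are printed with 10 bases on each side and the match in capitals, PHLDA1 at chr12:76031850-76031875, SPRY2 at chr13:80341253-80341278 and DUSP6 at chr12:89352533-89352557, each on the minus strand. The sites of PHLDA1 and DUSP6 lie inside exons of their own genes in GENCODE 29. These windows are thus not upstream of every annotated start. All 250 bases of the windows of PHLDA1, DUSP6 and SPRED1 lay in such exons, as did 170 of the 250 of SPRY4. The motif search covered those bases too. The SPRY2 site lies outside the annotated exons of SPRY2. Exons of other genes were not checked.
PHLDA1: ggagaggagtTTCCGGggctcgggtc
SPRY2: cctgcctcctCCGGAAaggcgagggc
DUSP6: cagcacgctcATTGGctggcccgga

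Of the 10 genes, 7 were higher in knockout than in control cells, 2 were lower and 1, SPRY2, did not pass the test. A gene was called when its p, adjusted over the 12293 tested genes by the Benjamini-Hochberg method in edgeR's quasi-likelihood test, was under 0.05. Every adjusted p given for a gene comes from that fit, except where the text says that a library was left out. Among all tested genes 50.4% were called, 24.6% as higher and 25.8% as lower. With the added rule of a change of at least 2-fold, 6 of the 10 genes were higher (PHLDA1, DUSP4, IER3, SPRY4, DUSP5 and DUSP6) and 0 lower, where 7.14% of tested genes passed that rule, 1.91% as higher and 5.23% as lower. The median log2 fold change of knockout over control was 1.06 over the 10 genes and -0.00 over all tested genes, whose middle range, from the first to the last quartile, was -0.27 to 0.20. Libraries of the groups did not overlap in 9 of the 10 genes, against 56.5% of tested genes. The set was put together with earlier results of these data known, so these shares describe it. In bulk RNA, fewer cells expressing a gene and less RNA per cell cannot be told apart.

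**Figure D1:**
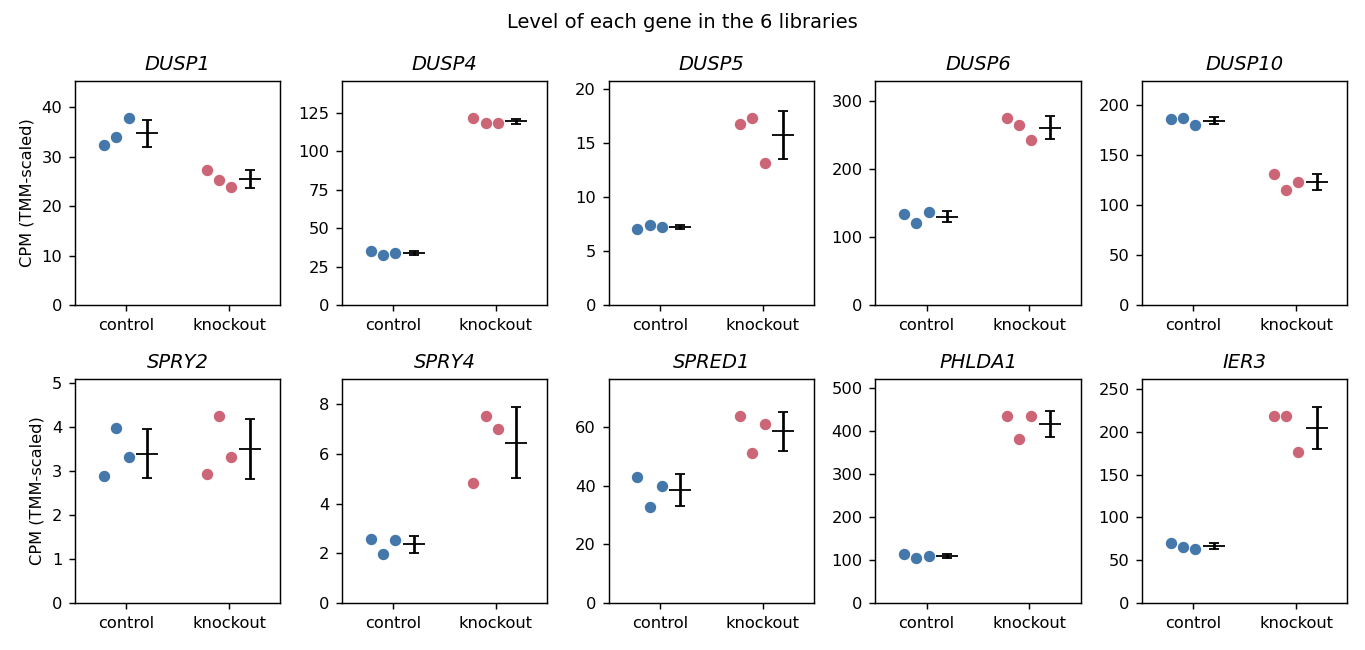
Each panel shows 1 gene, with a point per library (CPM, scaled by TMM, linear axes from 0), and a bar and whiskers for the mean and SD of 3 libraries. Control and knockout points overlap in SPRY2 alone; DUSP1 and DUSP10 are lower in the knockout and the other 7 genes higher.

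DUSP6, a phosphatase of the cytoplasm with strong preference for ERK, doubled. It stood at 133.7, 120.4 and 136.3 CPM in control and at 274, 265 and 242 CPM in knockout libraries. Every knockout library lay far above every control library, with a log2 fold change of 1.01 (SE 0.05, adjusted p = 3.95e-17). DUSP6 is the gene nearest the 2-fold rule: its change was 2.01-fold, and it fell under that rule, at 0.95 to 0.99 on the log2 scale, when control replicate 2, knockout replicate 1 or knockout replicate 2 was left out.

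DUSP5, a nuclear phosphatase specific for ERK, was far less abundant and changed by a like amount. Control libraries held 7.05, 7.46 and 7.23 CPM (98, 129 and 89 counts) and knockout libraries 16.8, 17.3 and 13.2 CPM (194, 228 and 151 counts). The lowest knockout library, replicate 3, was still well above every control library, and the change on the log2 scale was 1.12 (SE 0.14, adjusted p = 1.44e-08).

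DUSP4, a nuclear phosphatase that accepts ERK and JNK, rose most among the phosphatases. Its levels were 35.4, 32.7 and 33.9 CPM in control and 121, 118 and 119 CPM in knockout libraries. Replicates lay close together, with a coefficient of variation of 3.99% in control and 1.41% in knockout libraries, and the change on the log2 scale was 1.82 (SE 0.06, adjusted p = 6.64e-24). Of all tested genes, 0.488% had a log2 fold change at least as high.

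DUSP1, a nuclear phosphatase of p38, JNK and ERK and an immediate-early gene, went the other way. It measured 32.5, 34.1 and 37.7 CPM in control and 27.3, 25.3 and 23.9 CPM in knockout libraries. The groups did not overlap, although the step between the nearest libraries was small. On the log2 scale the change was -0.44 (SE 0.09, adjusted p = 6.70e-05).

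DUSP10, which acts on p38 and JNK and hardly on ERK, was the other gene that fell. Control libraries held 186, 187 and 180.1 CPM and knockout libraries 132, 116 and 123 CPM, so every knockout library lay below every control library. Its log2 fold change was -0.58 (SE 0.05, adjusted p = 8.53e-12). As a phosphatase of p38 and JNK it is not an inhibitor of ERK in the sense of the set's name.

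Levels of different genes were compared as CPM per kilobase of annotated exon, joined over all transcripts of a gene. Comparisons between genes depend on this length, and no other length was tried. On that scale DUSP10 held 54.5 ± 1.72% of the summed RNA of the 5 phosphatases in control and 31.6 ± 1.55% in knockout libraries (mean ± SD, n = 3 each). DUSP6 went from 24.2 ± 1.28% to 42.1 ± 1.14% and became the most abundant of the 5 in each knockout library, and DUSP4 went from 4.04 ± 0.137% to 12.3 ± 0.470%. DUSP1 held 14.8 ± 1.05% and 9.44 ± 0.167%, and DUSP5 2.39 ± 0.0944% and 4.50 ± 0.524%. The sum itself moved less than its parts, from 114 to 117 CPM per kb in control and from 128 to 141 in knockout libraries. The ratio of DUSP6 to DUSP10 was 0.445 ± 0.0359 in control and 1.33 ± 0.103 in knockout libraries, and that of DUSP4 to DUSP1 was 0.273 ± 0.0273 and 1.31 ± 0.0731.

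**Figure D2:**
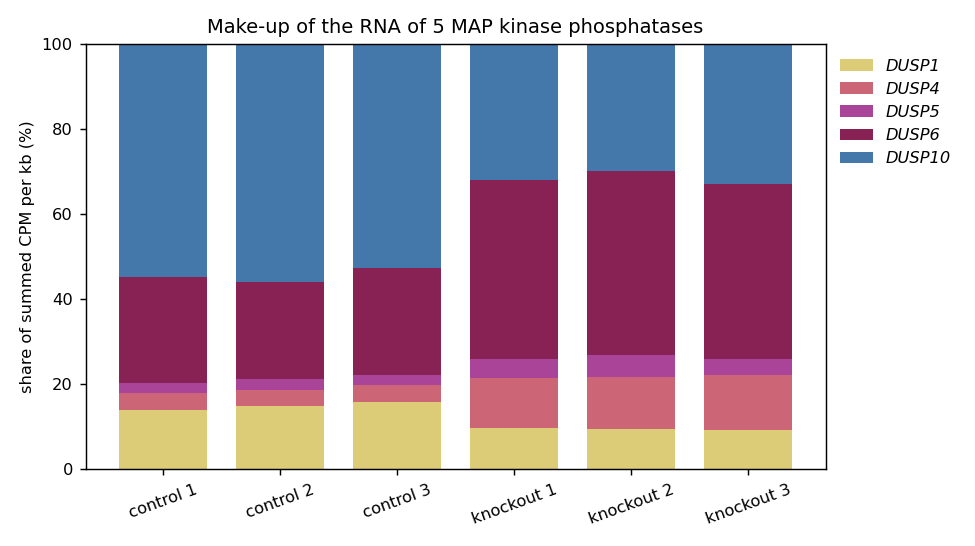
Bars show, for each library, the share of DUSP1, DUSP4, DUSP5, DUSP6 and DUSP10 in their summed level (CPM per kb of exon, in percent). DUSP10 is the largest part of each control bar, at 52.7% to 56.1%, and DUSP6 of each knockout bar, at 41.0% to 43.3%.

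The Sprouty genes were the least abundant of the 10. SPRY2 had 40, 69 and 41 counts in control and 34, 56 and 38 in knockout libraries, or 2.88, 3.99 and 3.33 against 2.94, 4.25 and 3.32 CPM. The groups overlap throughout; the change on the log2 scale was 0.04 (SE 0.25, adjusted p = 0.903), and its 95% interval of -0.44 to 0.53 leaves room for a moderate change in either direction. SPRY4 had 36, 34 and 31 counts in control and 56, 99 and 80 in knockout libraries, or 2.59, 1.97 and 2.52 against 4.84, 7.52 and 7.00 CPM. Each knockout library lay above each control library, with a log2 fold change of 1.46 (SE 0.23, adjusted p = 2.09e-06) and an interval of 1.01 to 1.92 that reflects the low counts. SPRY4-AS1, an antisense gene over SPRY4, is listed at 0 in all 6 libraries. The sources used here do not give the strand setting of the counting, without which reads of such pairs cannot be told apart. Antisense genes are also annotated over DUSP1, DUSP6 and PHLDA1. They have no row among the counts, so the same limit holds for these 3 genes.

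SPRED1, which carries neurofibromin to RAS at the membrane, rose by a smaller step. Control libraries held 42.9, 32.6 and 40.0 CPM and knockout libraries 63.7, 51.0 and 60.9 CPM. The lowest value of each group was in replicate 2, and the groups did not overlap. On the log2 scale the change was 0.61 (SE 0.10, adjusted p = 6.45e-05).

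PHLDA1, a protein with a pleckstrin homology-like domain whose gene is an early target of growth factor signalling, had the largest change of the 10. It stood at 113.9, 105.2 and 109.9 CPM in control and 434, 381 and 434 CPM in knockout libraries. The lowest knockout library was more than 3 times the highest control library. On the log2 scale the change was 1.92 (SE 0.05, adjusted p = 6.44e-26), and by p it ranked 6 among all tested genes.

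IER3, an immediate-early gene and ERK substrate, is known for protecting cells from apoptosis and for prolonging ERK phosphorylation, so the word inhibitor does not describe it. Its levels were 70.4, 65.9 and 63.2 CPM in control and 218, 218 and 176 CPM in knockout libraries. Knockout replicate 3 was the lowest of its group and still far above the control libraries. On the log2 scale the change was 1.62 (SE 0.08, adjusted p = 5.50e-11). IER3-AS1, antisense to IER3, is listed at 0 in all 6 libraries.

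Per kilobase, the order of the 10 genes in control cells was DUSP10 (63.2 ± 1.21 CPM per kb), IER3 (49.0 ± 2.66), DUSP6 (28.1 ± 1.85), DUSP1 (17.2 ± 1.34), PHLDA1 (13.6 ± 0.537), DUSP4 (4.69 ± 0.187), SPRED1 (4.66 ± 0.641), DUSP5 (2.77 ± 0.0791), SPRY2 (1.12 ± 0.184) and SPRY4 (0.359 ± 0.0519; SD, n = 3 each). DUSP4 and SPRED1 exchange places between control libraries, and the other steps hold in each of the 3. In knockout cells IER3 came first at 150.7 ± 17.9 CPM per kb, followed by DUSP6 (56.3 ± 3.55) and PHLDA1 (51.6 ± 3.79), whose order differs between libraries. DUSP10 followed at 42.3 ± 2.75, then DUSP4 (16.5 ± 0.232), DUSP1 (12.6 ± 0.858), SPRED1 (7.09 ± 0.806) and DUSP5 (6.03 ± 0.854). SPRED1 and DUSP5 do not keep their order, and SPRY2 (1.15 ± 0.222) lay above SPRY4 (0.983 ± 0.216) in each library by a mean step smaller than their spread. Without the division by length that order turns, with knockout means of 3.51 CPM for SPRY2 and 6.45 CPM for SPRY4.

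Earlier results of these data showed stretches of chromosomes whose genes were lower in the knockout, so each gene was set beside the 10 nearest tested genes on either side whose mean log2 CPM reached 2. For DUSP10 (chromosome 1, 221701424 to 221742176, minus strand, GENCODE 29 on GRCh38) the 20 neighbours had a median log2 fold change of -0.27, with 16 of 20 below 0. DUSP10 itself, at -0.58, differed from that median by -0.31, and 3 of the 20 neighbours were lower still. DUSP1, on chromosome 5 from 172768090 to 172771195, fell among neighbours with a median of 0.24, 3 of which were lower than it. This median depends on how many neighbours are taken, at 0.15 with 5 and 0.08 with 20 on each side; that of DUSP6 was 0.35 with 5, and that of IER3 turned from -0.13 to 0.02 with 20.

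The genes that rose lay among neighbours with medians from -0.13 to 0.22. The neighbours of DUSP4 on chromosome 8 had a median of 0.04, those of IER3 on chromosome 6 (30743199 to 30744554) -0.13, those of SPRY4 on chromosome 5 0.04 and those of DUSP5 on chromosome 10 -0.12; none of the 20 neighbours reached the gene's own value in these 4 cases. Around PHLDA1 on chromosome 12 (76025447 to 76033932) the median was 0.04, and 1 of 20 neighbours was higher than it. DUSP6, also on chromosome 12 (89347232 to 89353271), had neighbours with a median of 0.22, and 2 of 20 exceeded it. For SPRED1 on chromosome 15 the median was 0.17, with 1 neighbour above it, and for SPRY2 on chromosome 13 it was -0.11.

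**Figure D3:**
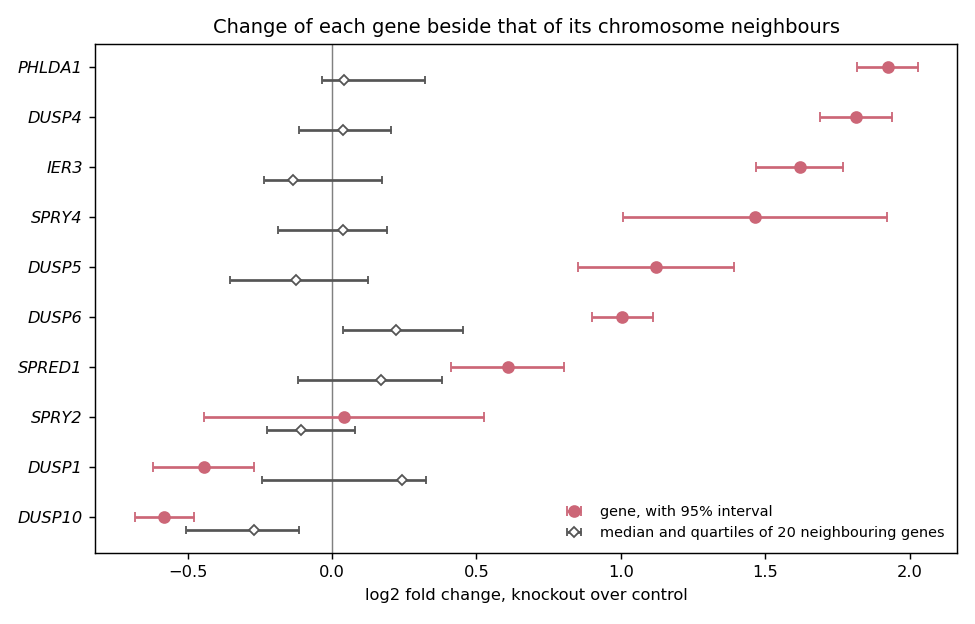
Filled points show the log2 fold change of each gene with its 95% interval, and open diamonds the median log2 fold change of its 20 nearest tested neighbours with their quartiles. PHLDA1, DUSP4, IER3, SPRY4, DUSP5, DUSP6 and SPRED1 lie to the right of their neighbours' quartiles, and DUSP1 and DUSP10 to the left. The neighbours of DUSP10 are themselves left of 0, with a median of -0.27.

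Relatives of the 10 genes moved both ways. Of the other MAP kinase phosphatases, DUSP7, a cytoplasmic ERK phosphatase closely related to DUSP6, rose from 21.0 ± 1.29 to 33.0 ± 2.04 CPM (log2 fold change 0.65, SE 0.09, adjusted p = 1.71e-07). DUSP9, of the same subgroup, fell from 40.3 ± 3.11 to 30.3 ± 1.41 CPM (-0.41, SE 0.08, adjusted p = 8.00e-05). DUSP2 (-0.26, adjusted p = 0.434) and DUSP16 (0.20, adjusted p = 0.115) did not pass, and DUSP8 had too few counts to be tested. Within the Sprouty and SPRED families SPRED2 rose from 14.7 ± 0.844 to 21.6 ± 1.70 CPM (0.55, SE 0.11, adjusted p = 5.13e-05), while SPRY1, SPRY3 and SPRED3 were under the filter, at a mean of at most 0.721 CPM.

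Other inhibitors of receptors, RAS or RAF moved both ways. Of the 11 with enough counts 4 rose and 5 fell, where 24.6% of all tested genes were called higher and 25.8% lower. The median change of the 11 was 0.04 on the log2 scale. NF1, which encodes neurofibromin, the partner of SPRED1, fell from 397 ± 6.41 to 299 ± 22.9 CPM (-0.41, SE 0.05, adjusted p = 1.54e-08). It lies on chromosome 17 among neighbours with a median of -0.28, of which 20 of 20 were below 0. SOCS3, an inhibitor of cytokine receptors, fell as well (-0.94, SE 0.16), where its neighbours had a median of 0.06. RASAL2, a RAS GTPase-activating protein, changed by -0.30 (SE 0.05; neighbours -0.36), and RASA2, of the same class, rose by 0.56 (SE 0.07).

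The cascade that these proteins act on changed by smaller steps. Of 22 tested genes of the RAS to ERK cascade 7 rose, 4 fell and 11 did not pass (median 0.09), a share of calls near the 50.4% of all tested genes; 1 of the 22 changed 2-fold or more. MAP2K1, which encodes MEK1, rose by 0.48 (SE 0.06), NRAS by 0.42 (SE 0.05) and EGFR, the EGF receptor, from 766 ± 35.3 to 969 ± 51.4 CPM (0.34, SE 0.05). KSR1, a scaffold of RAF and MEK, fell to 4.08 ± 0.440 CPM in the knockout (-1.15, SE 0.18), among neighbours with a median of -0.27. MAPK3, the gene of ERK1, lay at -0.03 and did not pass (adjusted p = 0.886).

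In the JNK and p38 cascade, where DUSP1 and DUSP10 act, 1 of 13 tested genes rose, 5 fell and 7 did not pass (median -0.12), again near the 50.4% called among all tested genes. MAP2K6, a kinase that activates p38, fell from 16.8 ± 2.27 to 5.45 ± 0.818 CPM (-1.62, SE 0.15), among neighbours with a median of 0.03. MAP2K3, the other main activator of p38, rose by 0.42 (SE 0.09; neighbours -0.33). MAPK9, the gene of JNK2, changed by -0.39 (SE 0.09; neighbours 0.02) and MAP2K4, a JNK activator, by -0.22 (SE 0.05), less than its neighbours on chromosome 17 (median -0.32, 17 of 20 below 0).

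Genes on the list of ERK response genes, which also holds transcription factors that ERK acts on, moved both ways. Among 23 with enough counts 13 rose and 4 fell, where 24.6% of all tested genes were called higher and 25.8% lower. The median of the 23 was 0.45, and the other 6 did not pass. FOSL1, an AP-1 subunit that accumulates under lasting ERK activity, went from 10.4, 9.03 and 8.20 CPM in control to 43.1, 49.6 and 44.3 CPM in knockout libraries (2.31, SE 0.10). MAFF, a small MAF transcription factor, rose by 1.43 (SE 0.12) and CCND1, cyclin D1, by 0.52 (SE 0.05), and the ETS factor genes ETV4 and ETV5, widely read beside DUSP6 and SPRY4, by 0.63 and 0.55. The 4 that fell were EPHA4, an ephrin receptor (-2.08, SE 0.13), FOS (-2.11), FOSB (-1.55) and JUNB (-0.48), of which the last 3, like the ETV genes, are named after their values were seen. Immediate-early genes also rose: JUN, an AP-1 subunit, by 0.82 (SE 0.08) and IER2 by 0.35 (SE 0.09). FOS stood at 220.5, 258 and 308 CPM in control and 59.8, 67.4 and 54.9 CPM in knockout libraries. EGR1, an immediate-early factor, lay at -0.47, short of the threshold (adjusted p = 0.0506), which it passed under 8 of 13 alternatives; 4 to 6 genes of the list were lower under them. FOS, FOSB, EGR1, DUSP1 and IER3 are known to respond within minutes, and the time from detachment of the cells to lysis is not given in the labels; its part in these values was not tested.

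**Figure D4:**
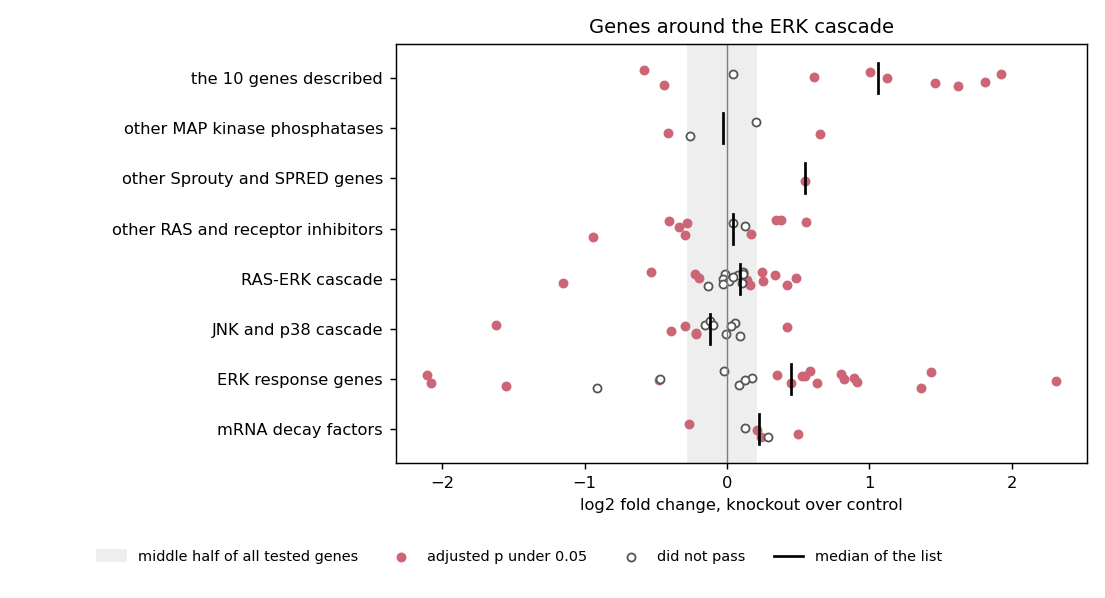
Points show the log2 fold change of each tested gene of 8 lists, filled where the adjusted p was under 0.05; black bars are list medians and the grey band spans the quartiles of all tested genes (-0.27 to 0.20). The 10 genes described have a median of 1.06, and the ERK response genes spread from -2.11 to 2.31.

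The median span of the 10 genes was 11.1 kb, with a median of 3.5 exons in the transcript with the most exons; the 11818 tested coding genes with a position had medians of 33.4 kb and 10 exons. SPRED1, with 7 exons, and DUSP10 span more than that median. Unstable mRNAs of early response genes carry AU-rich elements in the 3′ UTR, which proteins such as tristetraprolin bind. The nonamer TTATTTATT was in the 3′ UTR of 3 of the 10 genes (DUSP1, DUSP4 and PHLDA1), against 8.86% of 11526 tested coding genes. Length was not adjusted for: the 3′ UTRs of DUSP4 and PHLDA1 have 3962 and 4672 bases, against a median of 1152.5 over the coding genes. The median number of ATTTA per kb was 2.78 in the 10 genes against 1.71. DUSP1 had 2 nonamers in 672 bases and fell, and PHLDA1 had 1 in 4672 bases and rose, so genes with the element moved both ways. IER3 had the densest ATTTA of the 10, at 8.14 per kb, and DUSP5 had none. The first nonamer of DUSP1 and that of PHLDA1, from position 101 and 314 of the 3′ UTR, are shown in capitals with 8 bases on each side, from GENCODE 29 transcripts.
DUSP1: gctggtccTTATTTATTtaacttca
PHLDA1: atttatgaTTATTTATTagtttttt

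Of 6 tested genes of RNA-binding proteins that act on such elements, 3 rose, 1 fell and 2 did not pass (median 0.23). Among all tested genes 24.6% were called higher and 25.8% lower. ZFP36L1, a decay factor related to tristetraprolin, rose from 51.6 ± 6.82 to 73.2 ± 4.57 CPM (0.50, SE 0.08). KHSRP and HNRNPD rose by 0.24 and 0.21, and HNRNPD did not pass without control replicate 1 (0.16, adjusted p = 0.105) or knockout replicate 3 (0.12, adjusted p = 0.163), while ZFP36L2 was the one that fell (-0.27, SE 0.08). For ZFP36, which encodes tristetraprolin, the value was 0.29 (adjusted p = 0.147).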

How the data were processed

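RNA was measured in 6 libraries of HaCaT cells made with a stranded total-RNA kit, per the labels' protocols. The authors deposited raw read counts per gene, 1 column per library; GRCh38 is the build named, per the submitters' processing notes. The sources used here give no aligner, counter or strand setting. Columns were matched to samples by name. The test on counts was that of edgeR 4.0.16 under R 4.3.3 (filterByExpr with a minimum count of 10 and total of 15, TMM scaling, robust quasi-likelihood F test, two-sided, Benjamini-Hochberg adjustment, threshold 0.05) on the whole table, after a check on simulated counts. SEs were derived from F (the size of the log2 fold change divided by its root), and a 95% interval is 1.96 SE on each side. That normal quantile ignores the finite degrees of freedom of the F test, so the intervals are too narrow. IER3 had a larger F than DUSP6 (446 against 342) and yet a larger p, so its interval is too narrow by more. CPM use TMM-scaled library sizes; exon lengths and positions came from GENCODE 29 and promoters from RefSeq on GRCh38.p14. The 10 genes and all lists were chosen with earlier results of these data known. Named were the 10 genes, SDR42E1, up to 4 genes per list with the smallest adjusted p, all genes of lists of at most 5, genes overlapping one of the 10, and the 3 genes most like DUSP6. Others were named after their values were seen: ETV4, ETV5, FOS, FOSB, JUNB, JUN, IER2, EGR1, ITGA6, KRT5, MAPK3 and ZFP36. Some genes under these rules are not reported here. Alternatives were DESeq2 1.42.0, limma-voom (limma 3.58.1), scaling by RLE or upper quartile, no count filter or 1 CPM required in 3 libraries, a block for the replicate number, leaving out each library, and 5 or 20 neighbours.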

Additional observations from a re-analysis of the deposited data

How the results depend on the processing

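Under the 13 alternatives to the edgeR fit, all 10 genes kept their side of the threshold, and the 9 that passed kept their direction: 7 were higher and 2 lower under each. SPRY2, which did not pass, ranged from -0.12 (without knockout replicate 2) to 0.18 (without control replicate 2). DUSP1 ranged from -0.49 to -0.38 and SPRY4 from 1.34 to 1.63. The number changed at least 2-fold was 5 or 6, with DUSP6 at 0.98 under upper-quartile scaling. Against 6197 called genes, DESeq2 called 5308 and leaving out 1 library 5338 to 6074. DESeq2 called 2 genes of the RAS to ERK cascade and 3 of the JNK and p38 cascade as lower, against 4 and 5. Among the other MAP kinase phosphatases 1 or 2 rose when a library was left out, the second being DUSP16 without control replicate 3 (0.32, adjusted p = 0.0293). Of 80 list genes, 60 kept their call under every alternative and 0 reversed. Deviations of libraries that share a number had correlations of 0.01, -0.08 and -0.12, none of the 3 the best match of its libraries, so the numbers were treated as names. With the replicate block 6425 genes passed and the same 9 of the 10 genes, DUSP1 at -0.44 and SPRY4 at 1.45. SPRY2 and SPRY4, at 31 to 99 counts per library, are limited by depth.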

Other observations

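Over 10659 named genes whose mean log2 CPM reached 2, the 3 whose library profile lay nearest to that of DUSP6 included PTHLH and NFE2L3. Likeness was the Euclidean distance between log2 CPM values over the 6 libraries, each gene centred on its mean, at 0.111 and 0.169. PTHLH, the parathyroid hormone-related protein, went from a mean of 165 to 334 CPM and NFE2L3, a transcription factor, from 85.9 to 178 CPM. The distance rests on 6 libraries in 2 groups, so it mostly reflects the size of the difference between the groups, which was 1.02 and 1.05 on the log2 scale against 1.01 in DUSP6.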
